A study of Homo sapiens with 6 samples.

Results

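Glycolysis and other targets of the hypoxia-inducible factors (HIF) were followed through 40 named genes, each found once by its symbol among the 24154 genes of the deposited table. Of these, 23 encode glucose and lactate carriers, glycolytic enzymes and their regulators (glycolysis, SLC2A1 to SLC16A3), and 17 are further HIF targets (CA9 to ANGPTL4). All 40 passed the filter on low counts, which kept 15302 genes. Poly(A) RNA was sequenced from cells labelled HCT116, an established human colorectal cancer line, after 48 h with a negative control siRNA (NC, 3 libraries) or with an siRNA against CPT2 (3 libraries). Both groups thus carried an siRNA, and untreated cells were not analysed here. CPT2 is the inner-membrane mitochondrial enzyme that hands long-chain fatty acyl groups from carnitine to coenzyme A for oxidation. Whether replicates came from separate cultures is not in the labels, and p-values cover just the spread among the 6 libraries, which may be technical.

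Glycolysis turns glucose into pyruvate in the cytosol, and lactate dehydrogenase then turns pyruvate into lactate for export. HIF is a pair of an oxygen-regulated alpha subunit and ARNT. With oxygen present, prolyl hydroxylases (EGLN1 and its relatives) mark the alpha subunit for VHL, which sends it to the proteasome. With little oxygen it is stable and binds short sites in many glycolytic genes and in genes for blood vessel growth, pH control, mitophagy and collagen modification. Cancer cells often hold glycolysis high with oxygen present as well.

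The core letters that HIF binds are ACGTG and GCGTG, and these were looked for on both strands in the 250 bases before the RefSeq start (GRCh38.p14) of the 35 members with an entry. At least 1 core was found in 12 of 21 glycolytic promoters (57.1%), in 11 of 14 promoters of the other HIF targets (78.6%) and in 43.2% of all 35116 promoters. ACGTG alone was in 38.1%, 57.1% and 18.5% of them. Members were read with 1 promoter per gene, while the 35116 were not reduced to 1 per gene, so the shares are in unlike units. The promoters differed in base composition too, with a median GC content of 69.6%, 66.8% and 58%. ACGTG also lies inside the palindrome CACGTG, which other factors bind, so a match is a description of the letters and not a HIF site. The 7 stretches of 30 bases below are shown because their genes had knockdown libraries all above or all below the NC libraries and a core within 120 bases of the start. They are written on the gene's own strand with the cores in capitals, where CACGT is ACGTG read on the other strand. GENCODE 29 places the stretches of HK2, ALDOC, CA9, EGLN1 and P4HA1 in exons of these genes that begin further upstream. That of INSIG2 lies before the gene. That of GAPDH lies inside the gene bounds but outside its exons, so the RefSeq start used for GAPDH is an internal one.
HK2 (chr2:74834067-74834096, plus strand): aatggGCGTGcgCACGTcactgatccggag
ALDOC (chr17:28576906-28576935, minus strand): ccccggaggagtCACGTagctctgcgacat
GAPDH (chr12:6535172-6535201, plus strand): ctctgcggggtCACGTGtcgcagaggagcc
CA9 (chr9:35673898-35673927, plus strand): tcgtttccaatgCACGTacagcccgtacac
EGLN1 (chr1:231422288-231422317, minus strand): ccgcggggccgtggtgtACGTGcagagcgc
P4HA1 (chr10:73096935-73096964, minus strand): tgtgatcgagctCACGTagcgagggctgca
INSIG2 (chr2:118088364-118088393, plus strand): ggctcgcaggtcCACGTcttattgacagca

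The libraries held 28353790 to 29449380 counts. On the first principal component (53.2% of the variance) knockdown replicate 1 scored 76.6 and the other 5 libraries -44.6 to 16.0, which sets it apart. Mitochondrially encoded transcripts were 10.002% to 10.8% of counts in NC and 8.99% to 17.0% in the knockdown. Of the 8 markers of colon carcinoma epithelium, KRT8 and KRT18 were abundant, and the summed level of the list was 1552 to 1811 CPM (counts scaled to library size) in NC and 1716 to 2658 CPM in the knockdown. EPCAM was at only 2.68 to 4.31 CPM, CDH1 at 1.03 to 2.90 CPM and KRT19 at 0.194 to 1.34 CPM. CDX2, the colon identity factor, had no count in any of the 6 libraries, where a count of 0 allows up to 3 counts, or 0.0957 to 0.118 CPM by library. VIL1 and CEACAM5 were at 0 in 4 of 6 libraries each and reached 0.107 and 0.197 CPM. CDH5, a gene of endothelial junctions, was at 52.1 to 87.8 CPM, and COL1A1, a fibrillar collagen, at 57.0 to 128 CPM. Both stood alone in their marker lists. The endothelial markers PECAM1, VWF and KDR reached at most 1.18 CPM. Of the fibroblast markers, PDGFRB reached 3.79 CPM and COL1A2, COL3A1, DCN and LUM at most 0.454 CPM. The low CDX2, EPCAM, VIL1 and CEACAM5, with CDH5 and COL1A1 present, go against the colorectal label in both groups, so the libraries are called those labelled HCT116. Leukocyte markers summed to at most 1.70 CPM. In bulk RNA, fewer cells of a type and less of an RNA per cell cannot be told apart.

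CPT2 itself (ENSG00000157184) lies at chr1:53196429-53214197 on the plus strand of GRCh38, in the gene bounds of GENCODE 29, which are used for the other genes too. It was at 23.6, 28.5 and 29.1 CPM in NC replicates 1, 2 and 3 and at 19.4, 21.3 and 19.0 CPM in knockdown replicates 1, 2 and 3. All 3 knockdown libraries were thus below every NC library. The fitted log2 fold change, knockdown over NC here and throughout, was -0.44 (SE 0.17, 95% interval -0.83 to -0.06). By edgeR's quasi-likelihood test with Benjamini-Hochberg adjustment over all genes this did not pass (adjusted p = 0.338). With offsets for transcript GC content and length the log2 fold change was 0.02 (SE 0.20). Without knockdown replicate 1 it was -0.44, and -0.26 with the offsets. The contrast below is therefore between libraries labelled as knockdown and control, with a small measured difference in the targeted transcript.

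Among the 23 glycolytic genes, the aldolases ALDOA and ALDOC, GAPDH, PKM and TPI1 were higher in the knockdown, by 0.40 to 0.54 on the log2 scale. SLC16A3 and PFKL were higher by 0.43 and 0.39, with unadjusted edgeR p of 0.107 and 0.0568. The hexokinase HK2 and the lactate carrier SLC16A1 had the lowest values, both lower by 0.53. None of the 23 passed edgeR's adjusted threshold (lowest adjusted p = 0.338), against 2 of all 15302 genes, or 0.0131%. DESeq2 called none of the 23 and 17 of all genes (0.111%), and limma on log2(FPKM + 1) called no gene. At an unadjusted p under 0.05, 5 members were higher (ALDOA, ALDOC, TPI1, GAPDH, PKM) and 2 lower (HK2, SLC16A1), where 9.18% of all genes were higher and 5.29% lower. Groups without overlap were found for 5 members on the higher side (PFKP, ALDOA, ALDOC, GAPDH, PKM) and 3 on the lower side (SLC2A1, HK2, SLC16A1), each side holding 12.2% of all genes. The share of members on the higher side, 21.7% by either measure, was above that of all genes. The shares on the lower side, 8.70% and 13.0%, from 2 and 3 members, were above it by less. These members share the 6 libraries, and whether the shares differ from the background was not tested. The median log2 fold change of the list was 0.15, with 13 members positive and 10 negative, against 0.01 over all genes.

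**Figure D1:**
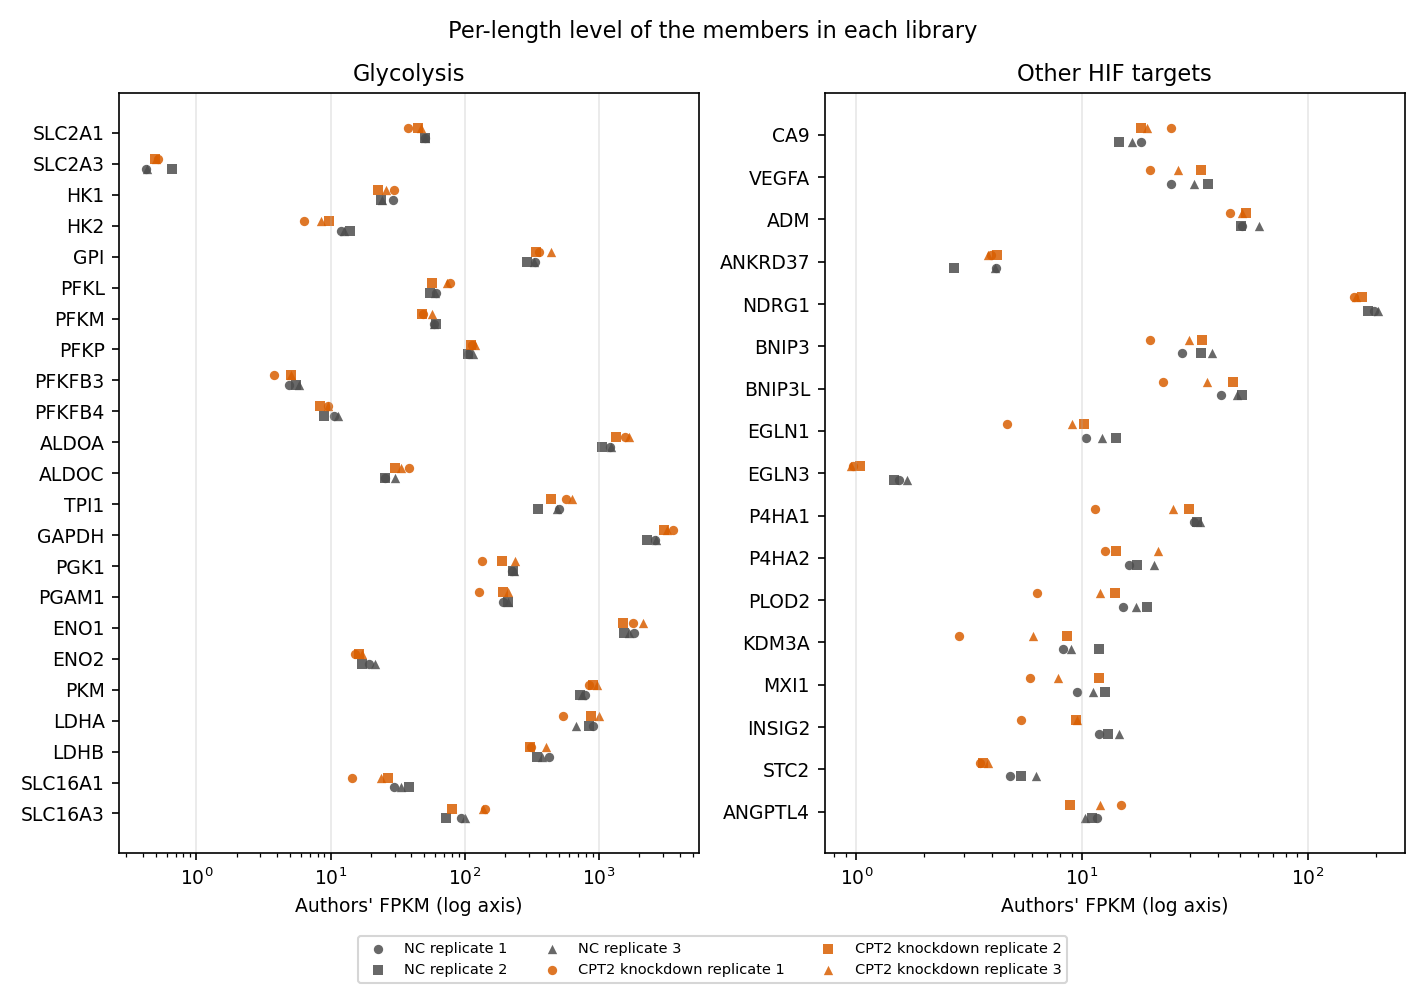
Per-length level (the authors' FPKM, log axis) of each of the 23 glycolytic genes and 17 other HIF targets, with 1 point for each of the 3 NC libraries (grey) and 3 CPT2 knockdown libraries (orange). Levels between genes span from under 1 to over 1000 FPKM, while the 6 points of a gene lie close together on this scale.

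The members differed far more from each other than between groups. Per transcript length, on the authors' FPKM scale, GAPDH had the highest mean level of the 40, 2532 ± 203 FPKM in NC and 3279 ± 256 in the knockdown (SD, n = 3). ENO1 followed at 1681 ± 142 and 1812 ± 302 FPKM, and ALDOA at 1164 ± 103 and 1518 ± 169 FPKM. The spreads of ENO1 overlap between groups. At the other end stood SLC2A3, the neuronal type of glucose carrier, at 0.501 ± 0.135 and 0.504 ± 0.0115 FPKM. Among the other HIF targets the range ran from NDRG1, a stress-responsive gene of differentiation, at 196 ± 10.3 and 166 ± 6.71 FPKM, to EGLN3, a prolyl hydroxylase, at 1.56 ± 0.109 and 0.983 ± 0.0494 FPKM. The glycolytic genes together took 1.92%, 1.73% and 1.91% of the NC counts (replicates 1, 2 and 3) and 2.07%, 1.89% and 2.25% of the knockdown counts. Those shares of all counts overlap between the groups, since knockdown replicate 2 lay within the NC range. In summed CPM the glycolytic genes were at 18735, 16344 and 17915 in NC and 23598, 19080 and 22574 in the knockdown, without overlap. Their summed FPKM did not overlap either, narrowly, at 8344 to 9524 in NC and 9581 to 11456 in the knockdown. The other HIF targets took 0.154%, 0.165% and 0.172% in NC and 0.110%, 0.146% and 0.132% in the knockdown, with every knockdown library below every NC library.

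Glucose enters through SLC2A1, the widespread glucose carrier, which was at 190, 185 and 184 CPM in NC and 168, 172 and 181 CPM in the knockdown (replicates 1, 2 and 3 in this order from here on). The groups did not overlap, but the gap was small, with a log2 fold change of -0.10 (95% interval -0.38 to 0.18; edgeR adjusted p = 0.636). HK2 (ENSG00000159399, chr2:74833981-74893359, plus strand), the inducible hexokinase that commits glucose to the cell, was at 72.1, 80.2 and 72.4 CPM in NC and 44.2, 59.5 and 51.4 CPM in the knockdown. All 3 knockdown libraries were lower, replicate 1 the most, with a log2 fold change of -0.53 (SE 0.16; edgeR adjusted p = 0.338). Without knockdown replicate 1 its log2 fold change was -0.44. HK1, the constitutive hexokinase, overlapped between the groups at 85.5 to 108 CPM in NC and 86.0 to 130 CPM in the knockdown.

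Of the middle steps, the isomerase GPI (795 to 881 CPM in NC, 875 to 1085 in the knockdown), the phosphofructokinases PFKL and PFKM, and PFKFB3 and PFKFB4, which make and remove the activator fructose 2,6-bisphosphate, all overlapped between groups. PFKP, the platelet-type phosphofructokinase, was at 278, 269 and 292 CPM in NC and 337, 301 and 317 CPM in the knockdown. These groups did not overlap, though the log2 fold change of 0.19 (SE 0.12) did not pass edgeR's test (adjusted p = 0.404), and it was -0.07 with the GC and length offsets. ALDOA (ENSG00000149925, chr16:30064164-30070457, plus strand), the main aldolase, which splits fructose bisphosphate, was at 1850, 1537 and 1840 CPM in NC and 2857, 2108 and 2611 CPM in the knockdown. ALDOC, its brain-type paralogue, was at 48.3, 45.8 and 51.3 CPM in NC and 86.4, 59.2 and 64.5 CPM in the knockdown. For both aldolases every knockdown library was above every NC library, replicate 1 the highest. Their log2 fold changes were 0.54 (SE 0.16) and 0.53 (SE 0.18), each at an edgeR adjusted p of 0.338, and without knockdown replicate 1 they were 0.43 and 0.34. ALDOA shares 42.3% of its exon bases with AC093512.2 on the same strand, whose own log2 fold change was 0.14, so how reads were split between them is uncertain.

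TPI1, which interconverts the triose phosphates, was at 641, 511 and 598 CPM in NC and 1013, 590 and 814 CPM in the knockdown, where replicate 2 lay among the controls. Its log2 fold change of 0.47 (SE 0.20) was 0.26 without knockdown replicate 1. GAPDH (ENSG00000111640, chr12:6533927-6538374, plus strand), which oxidises glyceraldehyde phosphate, was at 4850, 4119 and 4695 CPM in NC and 7575, 5687 and 6023 CPM in the knockdown. All 3 knockdown libraries were higher, with a log2 fold change of 0.50 (SE 0.16; edgeR adjusted p = 0.338). GENCODE 29 names 62 pseudogenes after GAPDH, none of them among the genes of the table used here, so its reads may be shared and the value is uncertain.

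PGK1, the first step that yields ATP, was at 1142, 1120 and 1137 CPM in NC and 791, 975 and 1221 CPM in the knockdown. The 3 controls nearly coincided and the knockdown libraries scattered to both sides of them (log2 fold change -0.19, 95% interval -0.57 to 0.20). ENO1, the main enolase, was at 3365, 2745 and 3019 CPM in NC and 3913, 2858 and 3975 CPM in the knockdown, with overlap through replicate 2 (log2 fold change 0.24, 95% interval -0.15 to 0.62). PKM (ENSG00000067225, chr15:72199029-72231822, minus strand), the pyruvate kinase of most tissues and tumours, was at 1874, 1664 and 1740 CPM in NC and 2382, 2200 and 2359 CPM in the knockdown. Its groups did not overlap and its knockdown libraries lay close together. PKM had a log2 fold change of 0.40 with an SE of 0.13 (adjusted p = 0.338 by edgeR), and of 0.36 without knockdown replicate 1. The mutase PGAM1 and the neuronal enolase ENO2 overlapped between groups, with log2 fold changes of -0.10 and -0.11.

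At the lactate end, LDHA, which favours making lactate, was at 1687, 1572 and 1568 CPM in NC and 1425, 1571 and 1881 CPM in the knockdown. LDHB, which favours using it, was at 570, 451 and 492 CPM in NC and 496, 421 and 552 CPM in the knockdown. Neither was set apart from its controls, with log2 fold changes of 0.01 (95% interval -0.31 to 0.34) and -0.04 (95% interval -0.39 to 0.30). SLC16A1 (ENSG00000155380, chr1:112911847-112957013, minus strand), a monocarboxylate carrier that moves lactate in either direction, was at 120, 148 and 130 CPM in NC and 67.6, 112 and 96.2 CPM in the knockdown. All 3 knockdown libraries were lower, replicate 1 the most (log2 fold change -0.53, SE 0.20; edgeR adjusted p = 0.338). SLC16A3, the carrier known for lactate export from glycolytic cells, overlapped at 182 to 257 CPM in NC and 196 to 381 CPM in the knockdown.

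Steps with several isozymes among the members were also read as shares of the summed FPKM of those members, for 13 shares in all. Relatives outside the member list were left out, such as HKDC1, ENO3, PFKFB2 and EGLN2. Their NC means were 22.2, 104, 15.4 and 32.1 FPKM, so a share is of the named members and not always of the whole step. The exact 2-sided permutation test of 3 against 3 libraries cannot go below p = 0.1, so no share could pass, and the lowest adjusted p over the 13 was 0.52. PFKM, the muscle-type phosphofructokinase, made up 25.3% to 27.5% of the step in NC and 20.4% to 22.6% in the knockdown. It was the only share of the 13 without overlap (exact permutation p = 0.1). HK1 made up 66.4% ± 3.88 of HK1 and HK2 in NC and 75.9% ± 6.34 in the knockdown (SD, n = 3), and the groups overlapped. SLC16A1 made up 27.8% ± 5.92 of its pair with SLC16A3 in NC and 16.4% ± 8.0 in the knockdown, again with overlap. ALDOA, ENO1 and SLC2A1 held 97.7%, 98.9% and 99.0% of their pairs in NC. LDHA held 67.8% ± 3.18 of the dehydrogenase pair in NC and 69.5% ± 5.70 in the knockdown, with overlapping libraries.

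**Figure D2:**
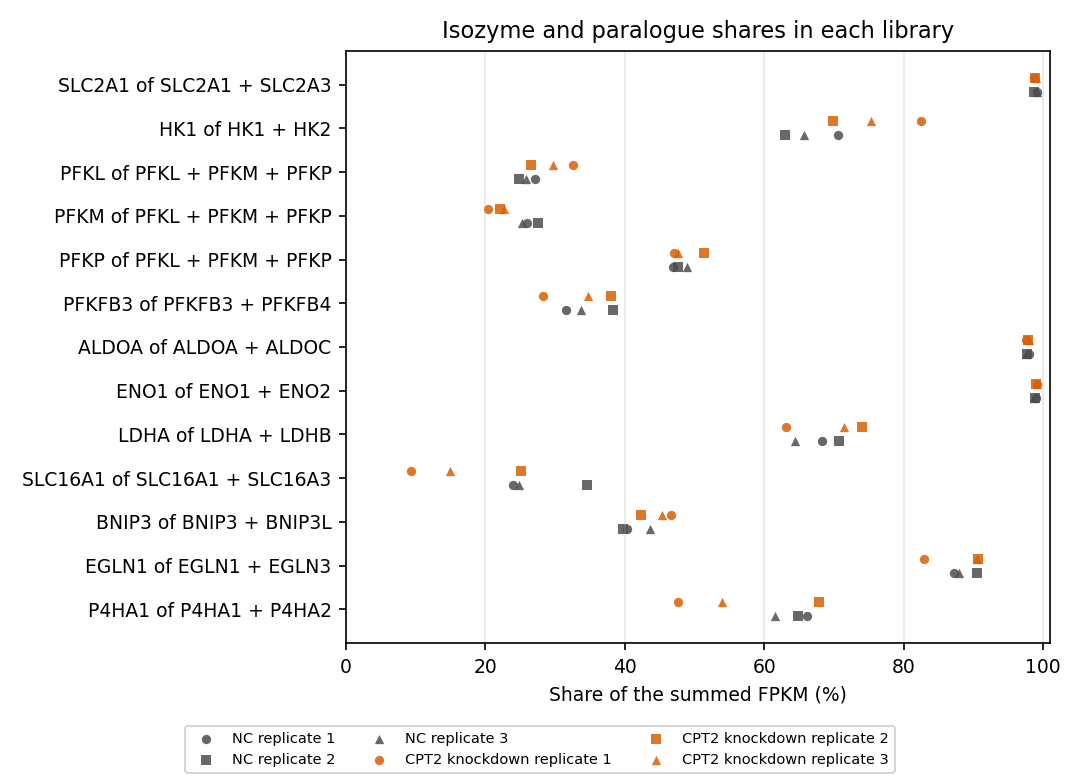
Share (%) of each named gene in the summed FPKM of the members named beside it, with 1 point per library, NC in grey and CPT2 knockdown in orange. PFKM was the only share whose groups did not overlap, at 25.3% to 27.5% in NC and 20.4% to 22.6% in the knockdown.

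Among the 17 other HIF targets, 14 had a negative fitted log2 fold change and 3 a positive one (CA9, ANKRD37, ANGPTL4), with a median of -0.29. The lowest values belonged to the collagen lysyl hydroxylase PLOD2, the sterol sensor INSIG2 and the histone demethylase KDM3A, at -0.60, -0.59 and -0.57. None of the 17 passed edgeR's or DESeq2's adjusted threshold (lowest edgeR adjusted p = 0.338). At an unadjusted p under 0.05, none was higher and 4 were lower (PLOD2, KDM3A, INSIG2, STC2). Groups did not overlap for 6 members on the lower side (EGLN1, EGLN3, P4HA1, PLOD2, INSIG2, STC2) and for CA9 on the higher side. The lower shares, 23.5% and 35.3% of the 17, were above the 5.29% and 12.2% of all genes, a difference that was not tested. The median of the list in each library against the NC mean was -0.12, -0.02 and 0.06 in NC and -0.35, -0.12 and -0.30 in the knockdown, and knockdown replicate 2 lay level with NC replicate 1.

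Oxygen sensing is represented by EGLN1 and EGLN3, hydroxylases that mark HIF alpha and are themselves induced by HIF. EGLN1 was at 76.7, 99.8 and 87.3 CPM in NC and 40.1, 76.5 and 67.6 CPM in the knockdown. EGLN3 was at 4.26, 3.47 and 4.27 CPM in NC and 3.20, 3.03 and 2.74 CPM in the knockdown. Both were lower in all 3 knockdown libraries, EGLN1 by a hair in replicate 2 and by far in replicate 1. Their log2 fold changes were -0.52 (SE 0.24) and -0.42 (SE 0.22), with edgeR adjusted p of 0.338 and 0.351. That of EGLN1 was -0.30 without knockdown replicate 1, and that of EGLN3 was -0.48.

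CA9 (ENSG00000107159, chr9:35673856-35681159, plus strand), the cell-surface carbonic anhydrase widely used as a hypoxia marker, was at 30.7, 23.5 and 27.0 CPM in NC and 48.7, 31.3 and 32.9 CPM in the knockdown. It was the only HIF target of the 17 higher in all 3 knockdown libraries, and replicate 1 was the highest. Its log2 fold change of 0.48 (SE 0.21; edgeR adjusted p = 0.338) was 0.24 without replicate 1 and 0.03 with the GC and length offsets. It shares 38.5% of its exon bases with ARHGEF39 on the opposite strand, and whether the counting used strand is not stated in the labels. VEGFA, the main growth factor for blood vessels, was at 86.2, 108 and 103 CPM in NC and 81.2, 108 and 80.0 CPM in the knockdown, with overlap (log2 fold change -0.14, 95% interval -0.53 to 0.24). The vasodilator peptide gene ADM overlapped as well, at 94.3 to 107 CPM in NC and 95.5 to 100.2 CPM in the knockdown.

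NDRG1 was at 611, 553 and 619 CPM in NC and 586, 548 and 516 CPM in the knockdown (log2 fold change -0.11, 95% interval -0.40 to 0.17). The mitophagy receptor BNIP3 was at 83.4, 97.3 and 109 CPM in NC and 70.1, 105 and 90.5 CPM in the knockdown. Both overlapped between groups, as did the BNIP3 relative BNIP3L (154 to 184 CPM in NC, 100.1 to 177 CPM in the knockdown). GENCODE 29 names 39 pseudogenes after BNIP3, none in the table used here, so the BNIP3 counts are uncertain.

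Collagen modification has P4HA1, P4HA2 and PLOD2, whose products hydroxylate proline and lysine in collagen chains. P4HA1 was at 92.9, 91.8 and 94.6 CPM in NC and 39.7, 90.0 and 75.8 CPM in the knockdown. PLOD2 (ENSG00000152952, chr3:146069440-146163653, minus strand) was at 57.1, 71.9 and 64.0 CPM in NC and 28.2, 53.7 and 45.2 CPM in the knockdown. All 3 knockdown libraries were lower for both, yet P4HA1 was nearly level with the controls in replicate 2 and far below them in replicate 1. The log2 fold changes were -0.44 (SE 0.26) for P4HA1 and -0.60 (SE 0.24, edgeR adjusted p = 0.338) for PLOD2. Without knockdown replicate 1 they were -0.18 and -0.39. P4HA2 overlapped between groups at 43.6 to 53.3 CPM in NC and 37.4 to 55.5 CPM in the knockdown.

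KDM3A, which removes methyl groups from histone H3, was at 44.4, 61.0 and 46.0 CPM in NC and 24.8, 45.6 and 31.8 CPM in the knockdown. INSIG2 (ENSG00000125629, chr2:118088452-118110997, plus strand), which holds the sterol-regulated transcription machinery in the endoplasmic reticulum, was at 31.1, 33.1 and 37.6 CPM in NC and 16.5, 25.7 and 25.6 CPM in the knockdown. The glycoprotein hormone gene STC2 was at 26.1, 27.8 and 33.4 CPM in NC and 22.7, 20.3 and 21.5 CPM in the knockdown. INSIG2 and STC2 were lower in all 3 knockdown libraries, whereas KDM3A overlapped through knockdown replicate 2. The log2 fold changes were -0.57 (SE 0.25) for KDM3A, -0.59 (SE 0.21) for INSIG2 and -0.44 (SE 0.17) for STC2, each at an edgeR adjusted p of 0.338. Without knockdown replicate 1 they were -0.39, -0.41 and -0.49. The MYC antagonist MXI1, the lipase inhibitor ANGPTL4 and ANKRD37 overlapped between groups, with log2 fold changes of -0.29, 0.26 and 0.07, which were -0.11, -0.03 and -0.01 without knockdown replicate 1.

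**Figure D3:**
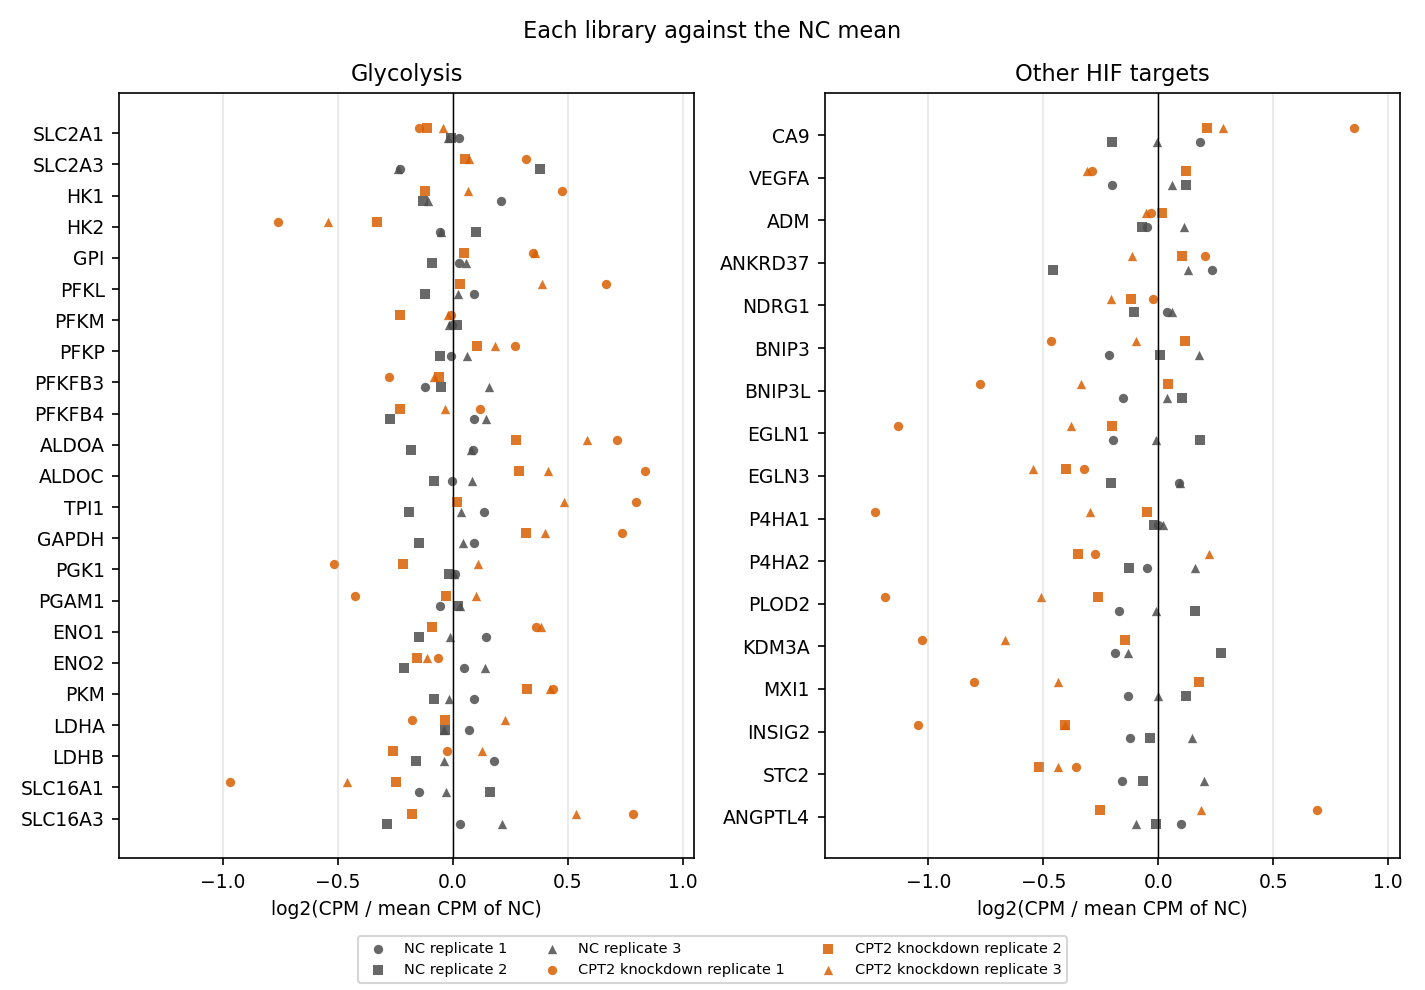
Each of the 6 libraries as log2 of its CPM over the mean CPM of the 3 NC libraries, for the 23 glycolytic genes (left) and the 17 other HIF targets (right), NC in grey and CPT2 knockdown in orange. Knockdown replicate 1 (orange circles) is the lowest library for HK2, SLC16A1, EGLN1, P4HA1, PLOD2, KDM3A and INSIG2 and the highest for ALDOA, ALDOC, TPI1, GAPDH and CA9.

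Leaving out knockdown replicate 1 left 4 glycolytic members higher (ALDOA, ALDOC, GAPDH, PKM) and the same 2 lower at an unadjusted p under 0.05, where 5.09% and 4.96% of all genes were higher and lower. Of the other HIF targets, PLOD2, INSIG2 and STC2 were then lower and none higher, and edgeR's adjusted test called no member of either list (lowest adjusted p = 0.487). The list medians were 0.05 for glycolysis and -0.14 for the other HIF targets. The glycolysis median was also 0.055 without NC replicate 1, 0.044 without NC replicate 3, 0.0047 with library size alone and 0.0072 by limma on log2(FPKM + 1), so its size depends on these choices. A call was also set on the authors' deposited p-values and log2 fold changes, at an unadjusted p under 0.01 and a fold of 1.5. By it 1 of the 40 members, INSIG2, is down (log2 fold change -0.59). Of all genes with a deposited p-value, 1.38% are down and 2.77% up by the same call. HK2, ALDOA, ALDOC, GAPDH and PKM also have p under 0.01 in the authors' deposited table, but with folds under 1.5.

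The log2 fold change of a member tended to be higher with a higher GC content of its transcript. Over the 40 members, GC content of the longest transcript and log2 fold change had a Spearman's rho of 0.72. It was 0.57 over the 23 glycolytic genes, 0.71 over the 17 other HIF targets and 0.68 over the 13207 tested genes with a GC value. These correlations are across genes of the same 6 libraries and are given as a description. The glycolytic genes had a median GC content of 53.3% and the other HIF targets 49.1%. Members with a GC content under 50% included 9 of 10 HIF targets with a negative value and 3 of 5 glycolytic genes. Members of at least 50% GC had a median of 0.21 for 18 glycolytic genes and -0.11 for 7 HIF targets. Of these, 7 glycolytic genes and 5 HIF targets were negative, so the sign varied at this GC content. Transcripts often retained in the nucleus, a list of RNA quality with 9 genes in the table, had a median log2 fold change of -0.32, which was 0.11 with GC and length offsets. None of the 9 was at 0, and they summed to 1859 to 2138 CPM in NC and 1615 to 2102 CPM in the knockdown. Their median against the NC mean was -0.12, 0.20 and -0.09 in NC and -0.83, -0.02 and -0.32 in the knockdown, lowest in knockdown replicate 1. Their part in the members' values was not tested.

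With offsets that remove each library's trend on GC content and length, rho over the 40 members was 0.13, and the medians were 0.09 for glycolysis and -0.18 for the other HIF targets. None of the 40 was called by edgeR after adjustment, against 0.0227% of all genes. At an unadjusted p under 0.05, ALDOA (log2 fold change 0.34) and PKM (0.27) were higher among the glycolytic genes and HK2 (-0.45), ENO2 (-0.29) and SLC16A1 (-0.26) lower. Of the HIF targets, STC2 (-0.39) and ADM (-0.37) were lower and none higher. Of all genes, 7.18% were higher and 5.82% lower in that fit. Among the glycolytic genes 8.70% were higher, near the share of all genes, and 13.0% lower. Among the other HIF targets 11.8% were lower. Whether these shares differ from those of all genes was not tested. The values of GAPDH, TPI1 and ALDOC were then 0.12, 0.10 and 0.21, and those of PLOD2, INSIG2 and KDM3A were -0.18, -0.23 and -0.19. HK2, with a GC content of 51.2%, was at -0.53 without and -0.45 with the offsets.

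**Figure D4:**
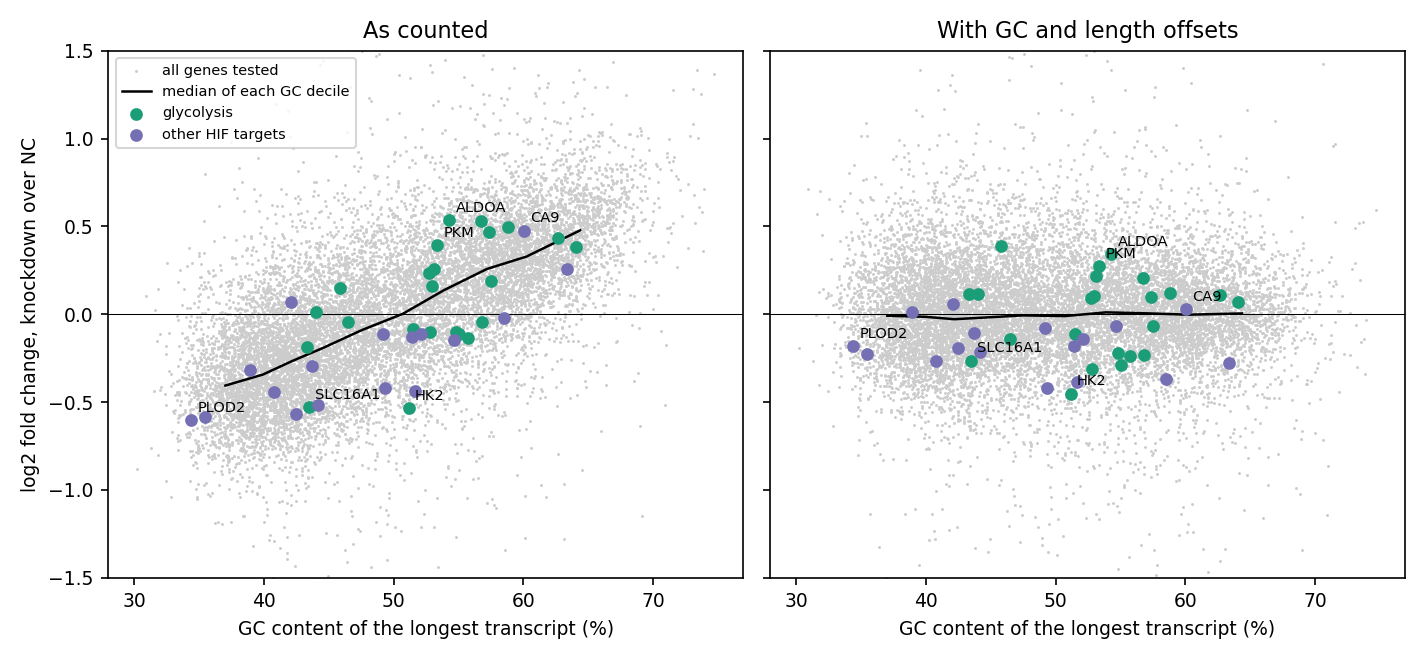
Log2 fold change (CPT2 knockdown over NC) against the GC content (%) of the longest transcript, without (left) and with (right) GC and length offsets, for all tested genes (grey), the glycolytic members (green) and the other HIF targets (purple). The black line joins the medians of GC deciles, and the members follow it on the left with a rho of 0.72 and show a rho of 0.13 on the right, where 13 of 23 glycolytic members lie above 0 and 14 of 17 HIF targets below it.

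The genes that control HIF showed no called member either in the edgeR fit used above. Of 16 tested (HIF alpha subunits, ARNT, VHL and its complex, hydroxylases and coactivators), ELOB was higher and VHL lower at an unadjusted p under 0.05, where 9.18% of all genes were higher and 5.29% lower, so these counts are near the background. The median log2 fold change was -0.19, and -0.09 with the GC and length offsets. HIF1A, the main alpha subunit, was at 120, 159 and 115 CPM in NC and 39.6, 130 and 85.5 CPM in the knockdown, with overlap through replicate 2 (log2 fold change -0.62, SE 0.36; edgeR adjusted p = 0.371). It was -0.29 without knockdown replicate 1 and -0.30 with the offsets. VHL was at 56.4, 70.1 and 60.7 CPM in NC and 40.4, 49.5 and 48.9 CPM in the knockdown, lower in all 3 (log2 fold change -0.43, SE 0.16; edgeR adjusted p = 0.338). EPAS1, the second alpha subunit, and ARNT overlapped between groups, with log2 fold changes of -0.45 and -0.34, or -0.27 and -0.20 without knockdown replicate 1. Over the alternative edgeR fits, the lowest adjusted p was 0.0409 for EPAS1 and 0.0453 for the coactivator EP300.

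Of 28 tested further hypoxia-responsive genes, HMOX1 and SPAG4 were higher and TFRC, GBE1 and VLDLR lower at an unadjusted p under 0.05, with a median of -0.10 and none called after adjustment. Against the 9.18% and 5.29% of all genes, 2 higher and 3 lower of 28 is not a result about the list. With the GC and length offsets the 5 log2 fold changes were 0.045, 0.14, -0.29, -0.41 and -0.29. PDK1, which closes pyruvate dehydrogenase, had a log2 fold change of -0.39 (SE 0.26). That of DDIT4, an inhibitor of mTOR signalling, was 0.20 (SE 0.16), and both signs turned with the offsets (0.045 and -0.17). PDK1 was at -0.17 without knockdown replicate 1. Among 12 tested other glycolytic isozymes and regulators, ENO3 (0.52) was higher and PFKFB2 (-0.57) lower at that threshold. Among 6 tested gluconeogenic enzymes, G6PC3 (0.50) was higher, and these counts of 1 are again no result against the shares of all genes. Without knockdown replicate 1, ENO3, PFKFB2 and G6PC3 were at 0.25, -0.40 and 0.25. With the offsets they were at 0.14, -0.22 and 0.49, and ENO3 and PFKFB2 were no longer at a p under 0.05. No member of these lists passed edgeR's adjusted threshold without a replicate block, or that of DESeq2 or limma. With a block, ERO1A, FAM162A, GBE1, TFRC and G6PC3 passed it either with or without the offsets (lowest edgeR adjusted p 0.0299 to 0.0482). Those fits called 4.94% and 4.14% of all genes.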

How the data were processed

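Raw counts of reads for each gene and library, and FPKM values beside them, were deposited by the authors, per the file headers. The gene models and library sizes behind the authors' FPKM, and the use of strand in counting, are not given in the labels or headers. The submitters' processing notes name HISAT2, TopHat2, Bowtie2, StringTie, edgeR and DESeq2, and the build GRCh38. The authors' deposited table also holds a p-value and a log2 fold change per gene from their DESeq2 comparison.

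Of 24154 genes (17 stray lines left out), 4180 were new loci without a symbol, with 5.32% to 7.18% of counts. The test was edgeR 4.0.16 in R 4.3.3 on these counts (filterByExpr, TMM, quasi-likelihood F-test, Benjamini-Hochberg threshold 0.05). CPM use TMM-scaled library sizes. GC and length offsets came from a loess (span 0.3) of each library on the longest GENCODE 29 transcript, for 13207 genes. DESeq2 1.42.0, limma-trend 3.58.1 on log2(FPKM + 1), RLE factors, library size alone, other filters, the replicate number as a block and leaving out each library were the alternatives. The fits were tested on simulated data.

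The members, lists and rules were chosen with earlier results of these data known. The rule for named genes gave every library's value for members with an unadjusted p under 0.05 or groups without overlap and for 14 members whatever their values (SLC2A1, HK2, ALDOA, GAPDH, PGK1, ENO1, PKM, LDHA, LDHB, CA9, VEGFA, NDRG1, BNIP3 and EGLN3). From the other lists it took HIF1A, EPAS1, ARNT, VHL, PDK1, DDIT4 and up to 3 genes with the smallest p. Fibroblast, endothelial and leukocyte markers were read as summed levels. Fibroblast markers summed to 61.4 to 80.5 CPM in NC and 79.6 to 132 CPM in the knockdown, and endothelial markers to 72.8 to 89.3 and 53.6 to 70.3 CPM. Most of these sums came from COL1A1 (57.0 to 128 CPM) and CDH5 (52.1 to 87.8 CPM), so they describe these genes more than cell types.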

Additional observations from a re-analysis of the deposited data

How the results depend on the processing

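No glycolytic or other HIF target member was called by edgeR with RLE factors, library size alone, other filters, GC and length offsets or any library left out, or by DESeq2 or limma. With a replicate block, edgeR called 633 of 15302 genes (4.14%), among them 2 glycolytic members (ALDOA, adjusted p = 0.0482, and SLC16A1, 0.0499) and 1 HIF target (PLOD2, 0.0499). With the block and the GC and length offsets it called 652 genes (4.94%), with 1 glycolytic member (HK2, adjusted p = 0.0219) and 1 HIF target (ADM, 0.0393). The 3 same-numbered pairs deviated together with correlations of 0.25, 0.36 and 0.01. Each knockdown library correlated best with its same-numbered NC library, though replicate 3 only at 0.0065, against 0.0042 with NC replicate 1. NC replicate 3 in turn correlated best with knockdown replicate 1 (0.09). The labels do not say whether the numbers are pairs, so the results above do not use them as pairs. Whether the libraries are paired is undecided. The shares' mean differences are the same with and without the replicate block.

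The HIF target median was -0.42 with library size alone, which moved the median of all genes to -0.13, and -0.12 with GC and length offsets without knockdown replicate 1. It ran from -0.40 to -0.14 with a library left out, nearest 0 without knockdown replicate 1. The glycolysis median of 0.15 was 0.0047 with library size alone, 0.0072 by limma, 0.091 with the offsets and 0.024 with the offsets without knockdown replicate 1, and it ran from 0.044 to 0.19 with a library left out. The CPT2 log2 fold change was 0.017 with the offsets and -0.26 with the offsets without knockdown replicate 1.

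Single members reversed sign in some fits, and the cause was not tested. With the offsets, the log2 fold changes were -0.069 for PFKP, 0.12 for PGK1, 0.011 for BNIP3L and -0.28 for ANGPTL4, and with the block added -0.072, 0.11, 0.010 and -0.27. With the offsets and without knockdown replicate 1 they were -0.040 for HK1, -0.0045 for PFKP, 0.11 for PGK1, -0.031 for CA9, 0.012 for VEGFA, -0.099 for ANKRD37 and -0.35 for ANGPTL4. Library size alone gave -0.12 for LDHA and -0.072 for ANKRD37, and limma -0.044 for LDHA. With a library left out, HK1 ran from -0.033 to 0.28, PFKFB4 from -0.16 to 0.041, PGAM1 from -0.21 to 0.026, LDHA from -0.10 to 0.091, LDHB from -0.14 to 0.055, ADM from -0.057 to 0.036, ANKRD37 from -0.12 to 0.20, BNIP3 from -0.28 to 0.0053 and ANGPTL4 from -0.027 to 0.46. The share differences ran from -0.45 to 1.70 points for PFKP, -3.10 to 1.79 for PFKFB3, -0.031 to 0.17 for ALDOA, -0.55 to 4.91 for LDHA and -1.85 to 2.08 for EGLN1. These are ranges of estimates and not intervals of uncertainty. They all include 0 because they are listed for a reversed sign. SLC2A3, ANKRD37 and EGLN3 have no value under the stricter filter. With 3 libraries a group, no member passed the adjusted threshold without the block, although the unadjusted 95% intervals of some, such as ALDOA (0.17 to 0.90) and HK2 (-0.90 to -0.17), excluded 0.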
